A study of Mus musculus with 12 samples.

Results

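The genes described here encode the subunits of the proteasome, the proteins that assemble it and its protein regulators, in the hearts of mice that were given melanoma cells, were trained on a treadmill, had both or had neither. They were taken as the rows of the table whose gene symbol is Psm, a letter from a to g and a number, with a mean of at least 1 scaled CPM over the 12 libraries. Scaled CPM is a gene's count scaled to a common library total and corrected for library composition (the TMM method). Of 17397 genes, 50 had such a symbol and 47 reached the limit. By role these were 7 alpha ring subunits, 7 constitutive beta ring subunits, 5 immune genes, 6 ATPases of the base, 11 other subunits of the regulatory particle, 7 assembly chaperones and 3 other regulators of the core. The remaining gene, Psmc3ip, shares only the symbol: its product is a cofactor of meiotic recombination. All 47 passed the filter on low counts and were tested among 12778 genes. Just inside the limit stood Psmc3ip at a mean of 2.85 scaled CPM and Psmg3 at 5.78, and just outside it Psma8 at 0.9, Psme2b at 0.281 and Psmb11 at 0.0227.

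The study asked, by its title, about low-intensity training and the heart in melanoma cachexia. All animals were wild-type C57BL/6J males, 8 weeks old, with 3 heart libraries in each of 4 groups. Control mice are marked as given saline and were not trained. Trained mice ran on a treadmill on 5 days a week for 4 weeks, with 1 week of adaptation; later sessions were 35 min of running at 12 m/min after 5 slower min at 6 m/min. Tumour mice were untrained and received 100000 B16F10 cells, a mouse melanoma line, by the tail vein from week 2, and tumour trained mice had both. Libraries are called by group and by the number in their label. No label says that the 3 libraries of a group came from separate animals, so the tests measure the spread between libraries.

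The proteasome is the protease that breaks down proteins tagged with ubiquitin, in heart muscle as in other cells. Alpha and beta rings form a barrel with its active sites inside, and a regulatory particle of ATPases, ubiquitin receptors and scaffold subunits recognises, unfolds and feeds in the substrates. Interferon induces replacements for the catalytic beta subunits and an alternative activator, which together are known for making peptides for antigen presentation.

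Libraries held between 8843909 and 13344847 counts. Markers of melanocytes (7 genes, among them Pmel and Tyrp1) took 1.18% of counts in tumour 1, 0.543% in tumour 2 and 0.00178% in tumour 3, against at most 0.00104% in the other 9 libraries. Tyrp1 was at 3670, 1510 and 1.38 scaled CPM in tumour 1, 2 and 3 and at 0 in the other 9. The 12 cardiomyocyte markers took 3.01%, 7.38% and 11.8% in tumour 1, 2 and 3, against 11.7% to 12.8% elsewhere, and 6 proliferation genes took 0.0978%, 0.0302% and 0.000568%, against at most 0.000972% elsewhere. The labels name the heart as the tissue and the extraction text the liver: Myh6, a cardiac myosin heavy chain, was at 6520 to 37500 scaled CPM, and 4 hepatocyte markers, Alb among them, took at most 0.000666% of counts in any library. Log2 fold changes that involve the tumour group, and the numbers of members that edgeR called, are therefore also given without tumour 1 and 2, a fit in which the spread came from the other 3 groups and the lone tumour library was assumed to vary like them. How much melanoma RNA contributed to any difference was not tested.

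Promoter sequences are shown for some of the members that the results name, and others, such as Psmb10, Psme1 and Psmd1, are not shown. The sequences come from RefSeq on GRCm38.p6, each covers the 120 bases before the start of the gene on its own strand, and capitals mark a match to a searched motif. Those of Psmc4, Psmd8 and Psme3 belong to the genes called lower in tumour trained than in tumour hearts, those of Psmd11 and Psmd2 to subunits of the regulatory particle that were high in tumour 3, and those of Psmb5, Psmb6 and Psmb8 to a constitutive pair of catalytic subunits and an immune replacement.
Psmc4 (chr7:28050093-28050212, minus strand): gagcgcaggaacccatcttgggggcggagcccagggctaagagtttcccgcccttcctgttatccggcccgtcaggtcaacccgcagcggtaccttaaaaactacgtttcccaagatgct
Psmd8 (chr7:29180674-29180793, minus strand): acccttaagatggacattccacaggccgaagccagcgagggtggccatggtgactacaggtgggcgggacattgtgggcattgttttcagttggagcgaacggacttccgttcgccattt
Psme3 (chr11:101316093-101316212, plus strand): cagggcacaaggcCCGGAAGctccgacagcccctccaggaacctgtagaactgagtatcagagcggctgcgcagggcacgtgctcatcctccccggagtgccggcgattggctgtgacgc
Psmd11 (chr11:80428495-80428614, plus strand): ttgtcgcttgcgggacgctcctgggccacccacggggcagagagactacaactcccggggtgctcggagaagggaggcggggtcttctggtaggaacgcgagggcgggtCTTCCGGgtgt
Psmd2 (chr16:20651532-20651651, plus strand): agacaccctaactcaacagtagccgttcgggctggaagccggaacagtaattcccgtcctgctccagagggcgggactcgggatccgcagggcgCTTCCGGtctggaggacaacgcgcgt
Psmb5 (chr14:54617996-54618115, minus strand): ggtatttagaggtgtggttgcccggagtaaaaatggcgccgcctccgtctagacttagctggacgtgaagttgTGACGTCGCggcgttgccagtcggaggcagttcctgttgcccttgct
Psmb6 (chr11:70525237-70525356, plus strand): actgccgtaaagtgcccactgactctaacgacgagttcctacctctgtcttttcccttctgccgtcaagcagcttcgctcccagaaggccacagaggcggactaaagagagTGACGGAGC
Psmb8 (chr17:34198075-34198194, plus strand): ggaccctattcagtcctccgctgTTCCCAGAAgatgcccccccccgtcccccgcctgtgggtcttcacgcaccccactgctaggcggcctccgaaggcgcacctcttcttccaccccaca

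The capitals in Psme3, Psmd11 and Psmd2 are the core CCGGAAG of ETS factors, read on the minus strand in Psmd11 and Psmd2. Those in Psmb5 and Psmb6 are the core of the antioxidant response element, TGACNNNGC, 47 and 9 bases before the start, and those in Psmb8 are the gamma-activated site TTCNNNGAA, 97 bases before it. The promoters of Psmc4 and Psmd8 held none of these motifs nor the interferon response core (GAAA, any 2 bases, GAAA). Both strands were searched over 250 bases before to 50 after the start, in the 40 members with an entry (Psmb1, Psmb2, Psmb7, Psmc3, Psmd3, Psmd7 and Psmg2 had none), and no 2 matches to different motifs overlapped.
The ETS core occurred in 15 of the 40 members (37.5%), against 16.1% of 13612 genes of the table and 8.86% of 32851 promoters. Of these 15, 6 were subunits of the regulatory particle outside the ATPases and 3 were ATPases, while none of the 4 constitutive beta and 5 immune genes with an entry had it. The rest were 2 assembly genes, 2 other regulators, 1 alpha subunit and Psmc3ip. Psmc3ip, which shares only the symbol, is thus counted among the 15 and the 40. The interferon response core occurred in 5 members (12.5%, against 3.75% of genes and 3.44% of promoters), of which Psme1 was the only immune gene. The antioxidant core was in 6 members (15%, against 16.3% and 12.4%) and the gamma-activated site in 3 (7.5%, against 8.46% and 8.3%). A match describes these letters and is not a shown binding site.

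Together the members took 0.625%, 0.532% and 0.466% of counts in tumour 1, 2 and 3, against 0.413% to 0.449% in the other 9 libraries. The 5 immune members went the other way, with 0.0157%, 0.0219% and 0.0271% in tumour 1, 2 and 3 and 0.0259% to 0.0337% elsewhere. In these shares, which are not corrected for library composition, tumour 1 was the extreme library in both sums and tumour 3 the nearest to the other groups. In summed scaled CPM the members were at 4991, 4804 and 4921 in tumour 1, 2 and 3, against 4284 to 4566 in the other 9 libraries. On that measure tumour 2 was the nearest for the members together.

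In tumour against control hearts, genes of the regulatory particle lay higher, immune genes lay lower and the constitutive beta ring lay near the controls, but no member passed the test. By edgeR's quasi-likelihood test with Benjamini-Hochberg adjustment over all genes, 0 of 47 members were called at an adjusted p below 0.05, where 6.79% of all genes were. At an unadjusted p below 0.05 there were 13 higher and 2 lower (all genes 23.7% and 10.7%), and DESeq2 called 4 higher (Psmd11, Psmd7, Psmc1 and Psmc3ip) and 1 lower (Psmb10), where it called 12.7% and 5.12% of genes. Groups did not overlap for 12 members higher and 2 lower, next to 14.2% and 11.8% of all genes. The median log2 fold change was 0.18 over the members and 0.11 over all genes tested. By class the median was 0.31 for the base ATPases, 0.26 for the other regulatory particle subunits, 0.28 for the assembly genes, 0.16 for the alpha ring, -0.06 for the beta ring and -0.53 for the immune genes. These values depend on scaling: relative to the 12 cardiomyocyte markers the median of all genes was 1.56, the immune median became 0.53 and the beta median 1.29, and with library size alone (all genes 0.32) the beta median became 0.13. Without tumour 1 and 2 again 0 members were called (1.4% of genes were). The class medians were then 0.24, 0.23, 0.08, 0.16, 0.07 and -0.01 in the same order, with 0.13 over the members and 0.02 over all genes.

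**Figure D1:**
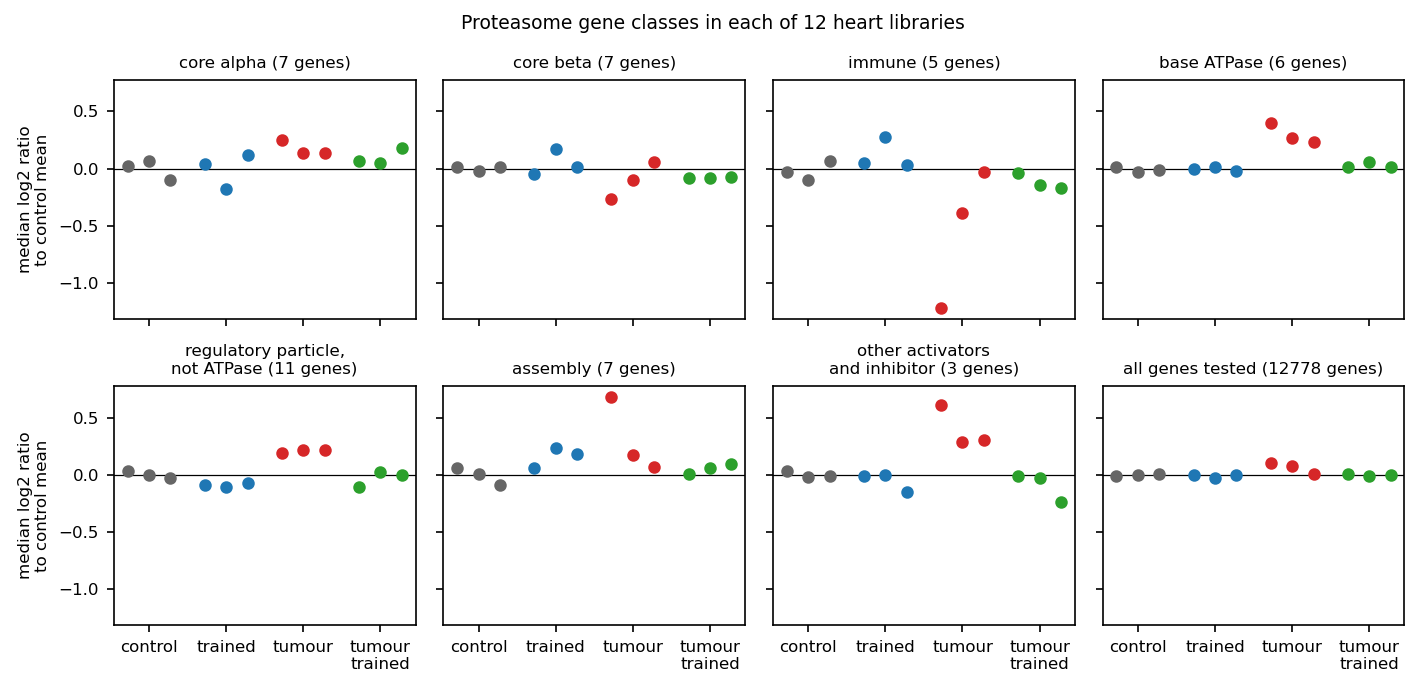
Median log2 ratio of scaled CPM to the control mean (vertical axis) for the genes of each class in each of the 12 libraries, 1 point a library, in the order of replicates 1 to 3 in each group (horizontal axis). In the ATPase panel the 3 tumour libraries lie at 0.40, 0.27 and 0.23, and in the immune panel at -1.22, -0.39 and -0.03.

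The ATPases of the base form the ring that unfolds substrates. Psmc2, which had the lowest positive difference of the class, was at 106, 104 and 106 scaled CPM in control hearts, 111, 100 and 111 in trained, 119, 114 and 126 in tumour and 108, 114 and 114 in tumour trained hearts. All 3 tumour libraries lay above all controls, with a log2 fold change of 0.19 ± 0.12, adjusted p = 0.244, and 0.27 ± 0.11 without tumour 1 and 2. Psmc6 was at 53.9, 65.6 and 57.7 scaled CPM in controls 1 to 3, 80.8, 34.2 and 86.3 in trained, 103, 70.5 and 62.1 in tumour and 90.7, 93.2 and 90.6 in tumour trained hearts. It was high in tumour 1 and in all 3 tumour trained libraries and lowest in trained 2, so the groups overlapped in tumour against control (log2 fold change 0.41 ± 0.30, adjusted p = 0.315, and 0.08 ± 0.36 without tumour 1 and 2). Psmc3 was at 237, 221 and 249 scaled CPM in control hearts, 213, 257 and 229 in trained, 175, 211 and 266 in tumour and 234, 237 and 232 in tumour trained hearts. It was the only ATPase with a negative value (-0.11 ± 0.17, adjusted p = 0.627), being low in tumour 1 and highest of all libraries in tumour 3. Its log2 fold change was 0.19 ± 0.13 without tumour 1 and 2 and 1.19 relative to the cardiomyocyte markers (median of all genes 1.56).

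Among the other regulatory particle subunits all 11 had a positive log2 fold change in tumour against control, from 0.10 to 0.62, and 9 of 11 did without tumour 1 and 2, from -0.03 to 0.40. Psmd14, the deubiquitinase that removes ubiquitin from substrates, was at 46.3, 46.6 and 40.3 scaled CPM in controls 1 to 3, 51.1, 32.4 and 54.3 in trained, 85.2, 61.4 and 46.2 in tumour and 49.2, 48 and 51.9 in tumour trained hearts. Tumour 1 and 2 were its highest libraries, and tumour 3 lay within the control range (0.53 ± 0.23, adjusted p = 0.131, and 0.07 ± 0.23 without tumour 1 and 2). The lid subunits Psmd13 and Psmd3 had the lowest values of the class. Psmd13 was at 75.9, 71.2 and 80.3 scaled CPM in control hearts, 65.8, 84.5 and 70.5 in trained, 80, 82.9 and 81.5 in tumour and 69.8, 71.5 and 77.9 in tumour trained hearts. Psmd3 was at 137, 125 and 138 scaled CPM in controls 1 to 3, 120, 157 and 128 in trained, 147, 155 and 131 in tumour and 116, 119 and 115 in tumour trained hearts. In both, the tumour libraries overlapped the controls (log2 fold changes 0.10 ± 0.13 and 0.11 ± 0.14, and 0.12 ± 0.16 and -0.01 ± 0.15 without tumour 1 and 2). Psmd11, a lid subunit chosen after its values were seen because its 3 tumour libraries were close together, was at 100, 107 and 100 scaled CPM in control hearts, 92.5, 92.1 and 93.7 in trained, 127, 131 and 125 in tumour and 94.5, 104 and 96.7 in tumour trained hearts. Every tumour library exceeded all 9 others, at 0.32 ± 0.11, adjusted p = 0.0842 on the log2 scale, and the value without tumour 1 and 2 was 0.30 ± 0.11 (adjusted p = 0.275, edgeR).

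Tumour 3, the tumour library with little melanoma RNA, placed the members as follows. In it, 15 of 47 lay above all 9 libraries of the other groups, where 15.7% of all genes did, and none lay below, where 12.3% did. Those 15 were 4 of the 6 ATPases (Psmc1, Psmc2, Psmc3 and Psmc5), 6 of the 11 other regulatory particle subunits (Psmd1, Psmd2, Psmd4, Psmd6, Psmd7 and Psmd11), the alpha subunits Psma2, Psma5 and Psma6, the beta subunit Psmb7 and the inhibitor Psmf1. None was an immune or an assembly gene. Against the 3 controls alone 25 members were above their range and 4 below, next to 31.9% and 29% of all genes. Psmd4, a ubiquitin receptor, had the highest log2 ratio to the controls among these 15, at 0.39. This is a single library, with no spread of its own.

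**Figure D2:**
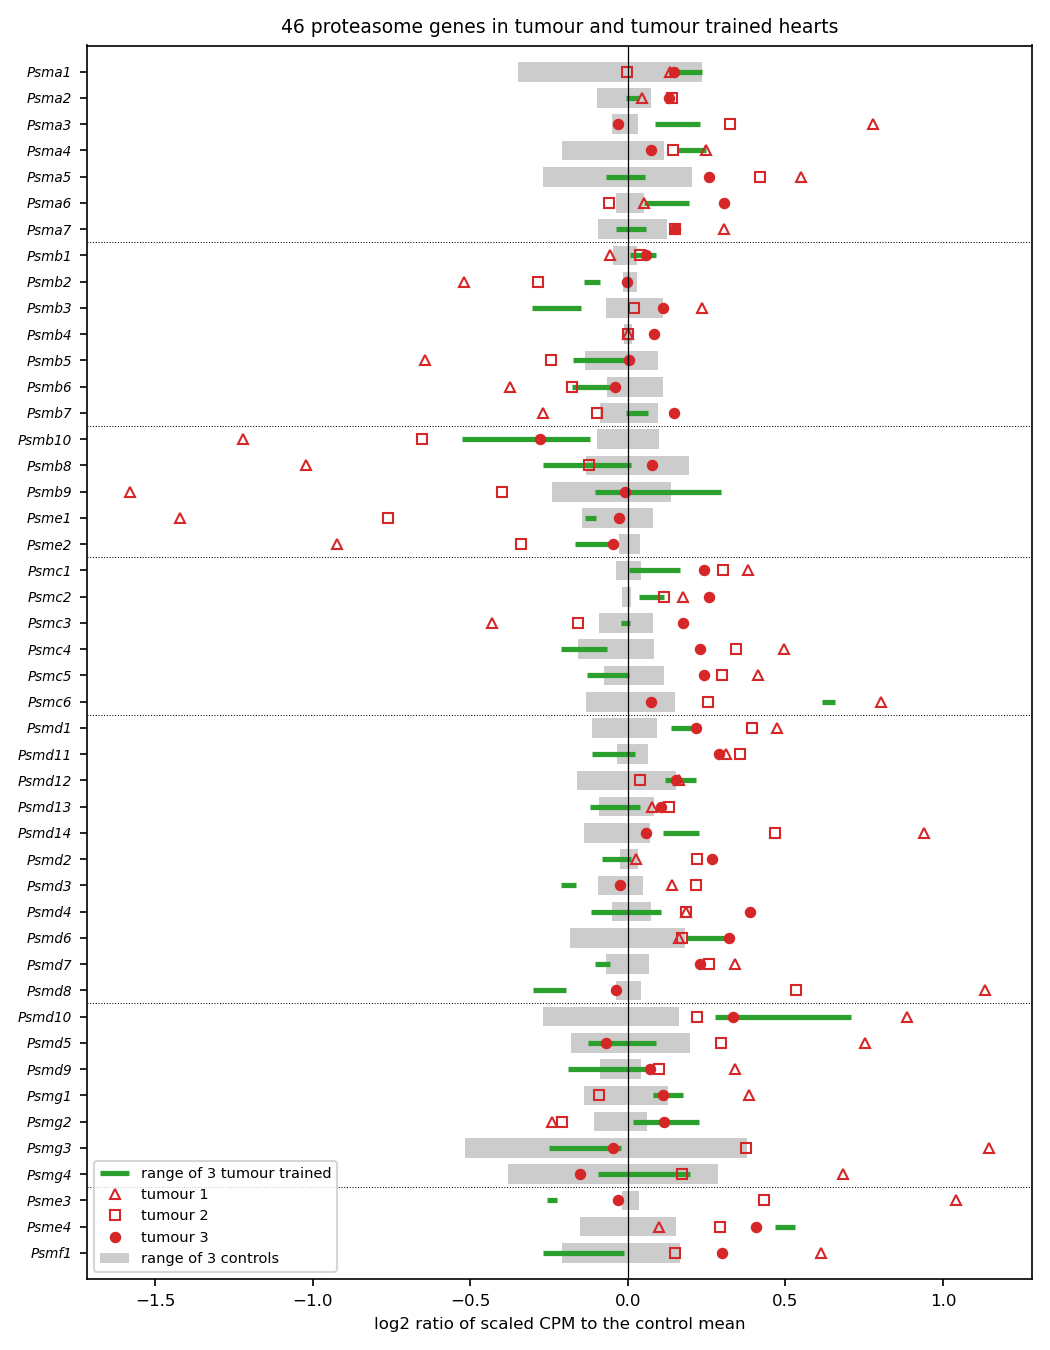
Log2 ratio of scaled CPM to the control mean (horizontal axis) for 46 proteasome genes (vertical axis, by class between dotted lines) in tumour 1 (open triangle), tumour 2 (open square) and tumour 3 (filled circle), with the range of the 3 controls as a grey bar and of the 3 tumour trained libraries as a green line. For Psmd11 the 3 tumour marks lie close together to the right of both ranges, and for Psme1 they spread from far left (tumour 1) to the control range (tumour 3).

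The alpha ring gates the barrel. Psma5 was at 58.5, 66.1 and 47.7 scaled CPM in controls 1 to 3, 52.3, 51.3 and 55.6 in trained, 84.1, 76.9 and 68.6 in tumour and 55.6, 54.8 and 59.7 in tumour trained hearts. It had the largest difference of the ring, with each tumour library above each of the 9 others (0.41 ± 0.14, adjusted p = 0.0811, and 0.27 ± 0.16 without tumour 1 and 2). Psma3 was at 87.9, 84 and 89 scaled CPM in control hearts, 89.1, 60.2 and 102 in trained, 149, 109 and 85.2 in tumour and 92.3, 102 and 98.5 in tumour trained hearts. Tumour 1 alone was far above the rest, and tumour 3 lay within the control range (0.40 ± 0.22, adjusted p = 0.207, and -0.02 ± 0.22 without tumour 1 and 2). The lowest differences in the ring were those of Psma1 and Psma6. Psma1 was at 105, 119 and 79.4 scaled CPM in controls 1 to 3, 108, 74.2 and 122 in trained, 111, 101 and 112 in tumour and 116, 113 and 119 in tumour trained hearts. Psma6 was at 129, 135 and 127 scaled CPM in control hearts, 132, 123 and 142 in trained, 135, 125 and 161 in tumour and 137, 135 and 149 in tumour trained hearts. Both overlapped the controls (0.09 ± 0.19 and 0.11 ± 0.14, and 0.16 ± 0.25 and 0.32 ± 0.12 without tumour 1 and 2), and trained 2 held the lowest value of each.

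In the beta ring, Psmb5, Psmb6 and Psmb7 carry the active sites of the constitutive form. Psmb5 was at 111, 98.9 and 116 scaled CPM in controls 1 to 3, 101, 123 and 102 in trained, 69.5, 91.7 and 109 in tumour and 108, 103 and 96.2 in tumour trained hearts. Psmb6 was at 122, 123 and 138 scaled CPM in control hearts, 117, 143 and 133 in trained, 98.5, 113 and 124 in tumour and 113, 116 and 125 in tumour trained hearts. Psmb7 was at 192, 178 and 169 scaled CPM in controls 1 to 3, 186, 167 and 183 in trained, 149, 168 and 199 in tumour and 188, 179 and 186 in tumour trained hearts. All 3 were lowest in tumour 1, and in tumour 3 Psmb5 and Psmb6 lay within the control range while Psmb7 was the highest of all libraries. Their log2 fold changes in tumour against control were -0.28 ± 0.17, -0.19 ± 0.14 and -0.06 ± 0.14. They were 0.01 ± 0.15, -0.03 ± 0.14 and 0.16 ± 0.12 without tumour 1 and 2. Relative to the cardiomyocyte markers, where the median of all genes was 1.56, they were 1.01, 1.18 and 1.29. Psmb2, a structural subunit with the second lowest value of the ring, was at 127, 123 and 123 scaled CPM in control hearts, 132, 135 and 121 in trained, 86.8, 102 and 124 in tumour and 116, 117 and 113 in tumour trained hearts, so tumour 1 and 2 were below and tumour 3 within the controls (-0.26 ± 0.14, adjusted p = 0.212, 0.00 ± 0.11 without tumour 1 and 2 and 1.07 relative to the cardiomyocyte markers). At the upper end, Psmb3 was at 98.8, 100 and 112 scaled CPM in controls 1 to 3, 98.7, 121 and 102 in trained, 122, 105 and 112 in tumour and 93.5, 83.9 and 91.3 in tumour trained hearts. Psmb4 was at 119, 120 and 121 scaled CPM in control hearts, 117, 137 and 121 in trained, 120, 120 and 127 in tumour and 114, 114 and 114 in tumour trained hearts. For both the tumour libraries overlapped the controls (0.13 ± 0.13 and 0.03 ± 0.12, and 0.13 ± 0.15 and 0.09 ± 0.12 without tumour 1 and 2). The 3 tumour trained libraries of each lay below all 9 others, and in tumour trained against tumour the values were -0.34 ± 0.13, adjusted p = 0.11 for Psmb3 and -0.10 ± 0.12, adjusted p = 0.559 for Psmb4 (-0.34 ± 0.15 and -0.17 ± 0.12 without tumour 1 and 2).

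The immune genes had the lowest median log2 ratio to the controls of any class in each tumour library, and the lowest of all in tumour 1, where melanoma markers were highest. Psme1 and Psme2 encode the alternative activator. Psme1 was at 153, 179 and 176 scaled CPM in controls 1 to 3, 176, 205 and 163 in trained, 63.3, 100 and 166 in tumour and 154, 157 and 158 in tumour trained hearts. Psme2 was at 63.1, 64 and 66.1 scaled CPM in control hearts, 58.2, 66.9 and 62.3 in trained, 34, 50.9 and 62.4 in tumour and 62.7, 58.6 and 57.3 in tumour trained hearts. Tumour 1 was lowest and tumour 2 next lowest of all 12 libraries for both, and tumour 3 lay within the range of the 9 others. The log2 fold change was -0.62 ± 0.27, adjusted p = 0.133 for Psme1 and -0.39 ± 0.19, adjusted p = 0.157 for Psme2. Psme2b, a near copy of Psme2 that may share reads with it, was below the limit in level.

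The 3 replacement catalytic subunits each had their lowest value in tumour 1. Psmb8 was at 15.8, 15.3 and 19.2 scaled CPM in controls 1 to 3, 17.4, 20.5 and 17.1 in trained, 8.26, 15.4 and 17.7 in tumour and 16.9, 14.9 and 13.9 in tumour trained hearts. Psmb9 was at 7.47, 5.74 and 7.15 scaled CPM in control hearts, 8.01, 9.37 and 7.34 in trained, 2.27, 5.15 and 6.74 in tumour and 8.34, 6.36 and 6.31 in tumour trained hearts. Psmb10 was at 40.4, 37.9 and 43.5 scaled CPM in controls 1 to 3, 35.4, 46.8 and 43.9 in trained, 17.4, 25.8 and 33.5 in tumour and 37.4, 28.2 and 34.2 in tumour trained hearts. Of the 3, only Psmb10 had all 3 tumour libraries below all 3 controls, and its tumour 3 lay inside the range of the tumour trained group. The log2 fold changes were -0.29 ± 0.25, adjusted p = 0.404 for Psmb8, -0.53 ± 0.34, adjusted p = 0.258 for Psmb9 and -0.67 ± 0.22, adjusted p = 0.0734 for Psmb10. Relative to the cardiomyocyte markers all 5 immune genes had positive values (0.46 to 0.86), each below the median of all genes on that scale, 1.56. The values without tumour 1 and 2 were 0.09 ± 0.20 for Psmb8, 0.00 ± 0.26 for Psmb9, -0.27 ± 0.20 for Psmb10, -0.01 ± 0.15 for Psme1 and -0.03 ± 0.13 for Psme2. Without tumour 3, 4 of the 5 immune genes were called lower: Psme1 at -1.09, Psmb10 at -0.96, Psmb9 at -0.92 and Psme2 at -0.65, in a fit that called 22.8% of all genes lower.

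Beside these genes, the 12 genes of antigen presentation and interferon response had a median log2 fold change of -0.13 in tumour against control (range -0.62 to 0.53), with 0 of 12 called. Of the 12, 8 had a negative log2 fold change and 4 a positive one. They took 0.0969%, 0.109% and 0.103% of counts in tumour 1, 2 and 3, within the 0.0971% to 0.109% of the controls or just under it. The shares in this paragraph are not corrected for library composition, unlike the fold changes and scaled CPM. The TMM factor was 1.268 in tumour 1, 1.112 in tumour 2 and 0.9435 to 0.9844 elsewhere, and a larger factor lowers scaled CPM at the same share. In tumour trained 1, 2 and 3 they took 0.0956%, 0.0874% and 0.0914%, below every control. There the median against control was -0.2, with 0 called and 6 lower without overlap (17.4% of genes). The 12 leukocyte markers took 0.0332% and 0.0535% in tumour 1 and 2 and 0.021% in tumour 3, against 0.0212% to 0.0293% elsewhere. In whole hearts, fewer cells of a type and less RNA per cell cannot be told apart. 

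**Figure D3:**
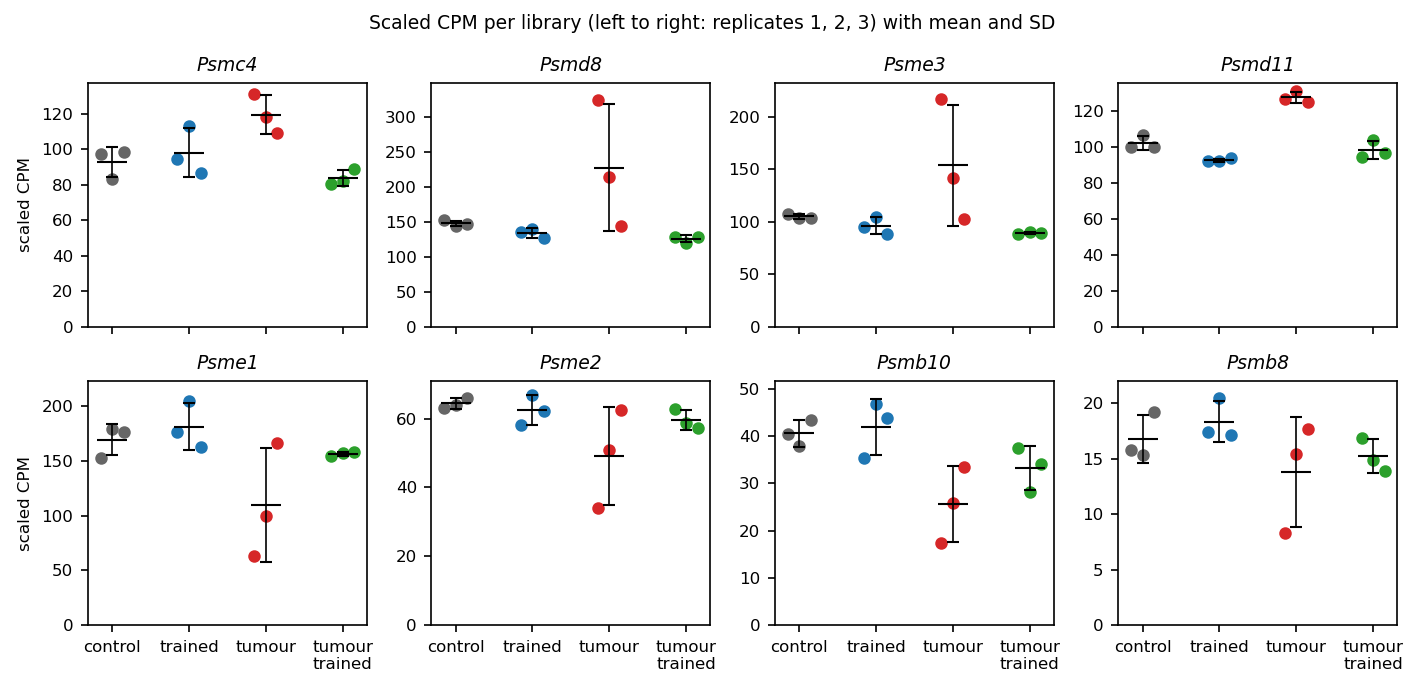
Scaled CPM (vertical axis) of 8 members in the 4 groups (horizontal axis), 1 point a library in the order of replicates 1 to 3, with the mean and SD. Psmd8 spans 144 to 324 across the tumour libraries and Psmd11 125 to 131, and Psme1 spans 63.3 to 166.

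Counts of each immune subunit per 100 counts of its constitutive counterpart compare libraries without any scaling between them. They are not molar ratios. Psmb10 per 100 of Psmb7 was 21.1, 21.3 and 25.8 in controls 1 to 3, 19, 28 and 24.1 in trained, 11.7, 15.4 and 16.8 in tumour and 19.9, 15.7 and 18.4 in tumour trained hearts. The tumour and the tumour trained values all lay below the lowest control, with means of 14.6 ± 2.64 and 18 ± 2.13 (SD, n = 3) against 22.7 ± 2.66. Trained 1, at 19, also lay below the lowest control, and trained 2 and control 3 had the highest values. The GC content of the transcript was 56.5% for Psmb10 and 48.7% for Psmb7. In the other pairs it was 55.3% for Psmb9 and 55.8% for Psmb6, and 55.8% for Psmb8 and 56.6% for Psmb5. How much GC content contributed to the ratio of Psmb10 to Psmb7 was not tested. Psmb9 per 100 of Psmb6 was 6.11, 4.68 and 5.17 in control, 6.81, 6.53 and 5.51 in trained, 2.31, 4.55 and 5.43 in tumour and 7.37, 5.5 and 5.06 in tumour trained hearts. Psmb8 per 100 of Psmb5 was 14.2, 15.5 and 16.6, then 17.3, 16.7 and 16.8, then 11.9, 16.8 and 16.3, then 15.6, 14.5 and 14.4 in the same order. In these 2 pairs the tumour group overlapped the controls. Tumour 1 was the lowest library of both, and for Psmb9 over Psmb6 tumour 2 also lay below the 9 libraries outside the tumour group. An exact two-sided permutation test of 3 libraries against 3, which cannot give a p below 0.1, gave p = 0.1 for Psmb10 over Psmb7 both in tumour and in tumour trained against control, and an adjusted p of 0.45 for each over the 9 tests of the 3 pairs. The same exact test of tumour against control gave p = 0.4 for Psmb9 over Psmb6 and p = 0.9 for Psmb8 over Psmb5.

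**Figure D4:**
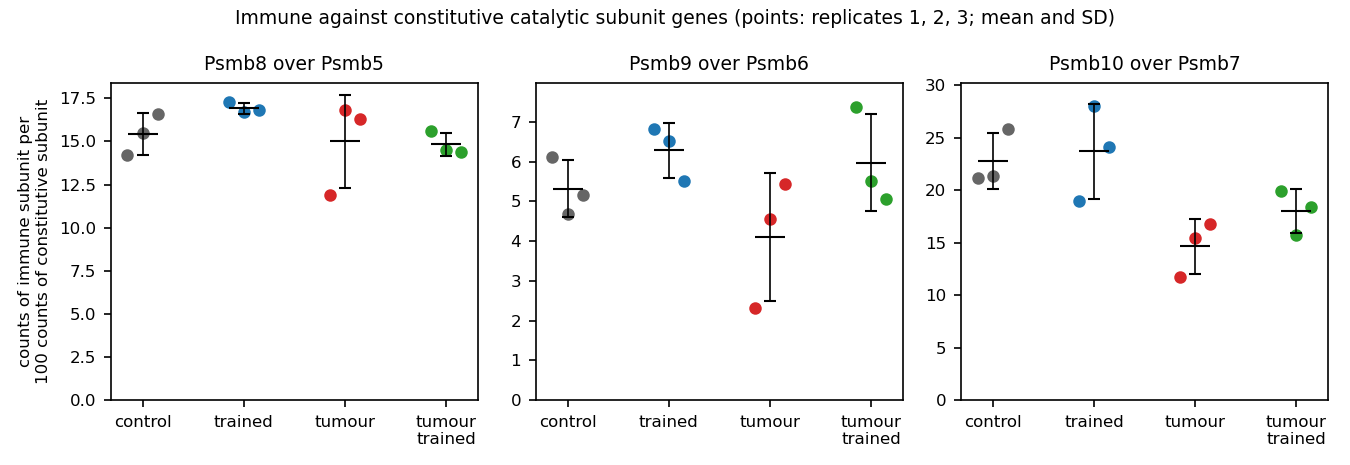
Counts of an immune catalytic subunit per 100 counts of the constitutive subunit it replaces (vertical axis) in the 4 groups (horizontal axis), 1 point a library in the order of replicates 1 to 3, with mean and SD. For Psmb10 over Psmb7 the tumour libraries lie between 11.7 and 16.8 and the controls between 21.1 and 25.8.

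The assembly genes include Psmg1 to Psmg4, which build the alpha ring, and Psmd5, Psmd9 and Psmd10, which build the base. Psmg3 was at 6.7, 3.6 and 5.15 scaled CPM in control hearts, 5.18, 6.16 and 5.53 in trained, 11.4, 6.68 and 4.98 in tumour and 4.33, 5.07 and 4.52 in tumour trained hearts. Psmd10 was at 7.85, 8.37 and 6.2 scaled CPM in controls 1 to 3, 8.83, 8.76 and 10.4 in trained, 13.8, 8.7 and 9.42 in tumour and 10.8, 9.06 and 12.2 in tumour trained hearts. Tumour 1 was the highest library for both, and Psmd10 alone of the pair had each tumour library above each control (0.51 ± 0.23, adjusted p = 0.141, against 0.58 ± 0.32, adjusted p = 0.202 for Psmg3). These were 0.34 ± 0.23 and -0.04 ± 0.31 without tumour 1 and 2. Psmg1 was at 16.8, 15.3 and 18.4 scaled CPM in control hearts, 19.3, 20.5 and 20.3 in trained, 22, 15.8 and 18.2 in tumour and 19, 17.8 and 18.7 in tumour trained hearts. Psmg2 was at 22.9, 22.6 and 20.4 scaled CPM in controls 1 to 3, 25.8, 20.4 and 24.9 in trained, 18.6, 19 and 23.8 in tumour and 22.2, 22.9 and 25.7 in tumour trained hearts. These 2 had the lowest differences of the class (0.15 ± 0.16 and -0.10 ± 0.16), and were 0.12 ± 0.16 and 0.13 ± 0.17 without tumour 1 and 2. Psmg2 was at 1.27 relative to the cardiomyocyte markers, where the median of all genes was 1.56.

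Of the other regulators, Psme3 and Psme4 are activators of the core and Psmf1 is an inhibitor. Psme4 was at 206, 254 and 226 scaled CPM in control hearts, 305, 132 and 305 in trained, 245, 280 and 303 in tumour and 322, 330 and 316 in tumour trained hearts. Its lowest library was trained 2, and its 3 tumour trained libraries were above all controls. Psmf1 was at 32.6, 25.1 and 29.4 scaled CPM in controls 1 to 3, 28.8, 30.7 and 26.2 in trained, 44.4, 32.2 and 35.7 in tumour and 28.8, 28.5 and 24.1 in tumour trained hearts. The tumour libraries overlapped the controls for Psme4 (0.27 ± 0.27) and for Psmf1 (0.37 ± 0.16), in Psmf1 only because tumour 2 was just under control 1. The values without tumour 1 and 2 were 0.42 ± 0.34 and 0.31 ± 0.18. Psmc3ip, the gene that shares the symbol alone, was at 1.24, 2.14 and 1.79 scaled CPM in control hearts, 2.59, 2.43 and 2.66 in trained, 8.26, 4.25 and 2.12 in tumour and 2.43, 3.02 and 1.26 in tumour trained hearts. It had the largest log2 fold change of the 47 (1.51 ± 0.47, adjusted p = 0.0666, and 0.31 ± 0.46 without tumour 1 and 2), with tumour 1 and 2 high and tumour 3 within the range of the other groups.

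In tumour trained against tumour hearts, 3 of 47 members were lower and none higher: Psmc4, Psmd8 and Psme3. Of all genes 9.05% were called, 7.25% lower and 1.79% higher, so the members' share of lower calls was close to that of all genes. DESeq2 called 8 members lower, those 3 with Psmd11, Psmd7, Psmc5, Psmc1 and Psma5, where it called 14% of genes lower. This comparison shares its tumour libraries with tumour against control, so the 2 are not independent.

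Psmc4, an ATPase of the base, was at 97.2, 83.3 and 98.4 scaled CPM in controls 1 to 3, 94.7, 113 and 86.4 in trained, 131, 118 and 109 in tumour and 80.3, 82 and 88.8 in tumour trained hearts. Each tumour library was above each tumour trained one, and trained 2 was above tumour 3. The log2 fold change was -0.51 ± 0.14, adjusted p = 0.0499 (edgeR). Without tumour 1 and 2 it was -0.39 ± 0.16, with an adjusted p of 0.301. In tumour against control it was 0.36 ± 0.14, adjusted p = 0.112, and 0.23 ± 0.16 without tumour 1 and 2.

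Psmd8, a lid subunit, was at 152, 144 and 147 scaled CPM in control hearts, 135, 140 and 127 in trained, 324, 214 and 144 in tumour and 129, 120 and 129 in tumour trained hearts. Tumour 1 and 2 stood far above all others, while tumour 3 lay at the low end of the controls and above the 3 tumour trained libraries. The log2 fold change was -0.85 ± 0.23, adjusted p = 0.0466 (edgeR) and without tumour 1 and 2 -0.21 ± 0.11, with an adjusted p of 0.41. In tumour against control it was 0.62 ± 0.23, adjusted p = 0.0961, and -0.03 ± 0.12 without tumour 1 and 2.

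Psme3, the activator of nuclear proteasomes, was at 108, 104 and 104 scaled CPM in controls 1 to 3, 95.2, 105 and 88.7 in trained, 217, 142 and 103 in tumour and 88.1, 90.1 and 89.3 in tumour trained hearts. Tumour 1 and 2 were again the highest libraries, and tumour 3 lay just under the controls and above the 3 tumour trained libraries, which spanned 88.1 to 90.1. The log2 fold change was -0.79 ± 0.22, adjusted p = 0.0488 (edgeR) and without tumour 1 and 2 -0.22 ± 0.12, with an adjusted p of 0.43. In tumour against control it was 0.54 ± 0.22, adjusted p = 0.112, and -0.03 ± 0.13 without tumour 1 and 2. Leaving out any single library other than tumour 3 or trained 2 ended all 3 calls (adjusted p from 0.0651 to 0.158), in fits that called 0.0225% to 0.864% of all genes, and without trained 2 only Psmc4 was called (9.34% of genes).

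Across the classes, the groups did not overlap for 19 members lower and 2 higher in tumour trained hearts, next to 14.5% and 13.5% of all genes. The 19 included 8 of 11 regulatory particle subunits outside the ATPases and 3 of 6 ATPases, and no immune gene. Class medians were -0.17 for the ATPases, -0.25 for the other regulatory particle subunits, -0.22 for assembly genes, -0.09 for the alpha ring, 0.08 for the beta ring and 0.38 for the immune genes, with -0.04 for all genes. Relative to the cardiomyocyte markers, where all genes had a median of -1.43, the beta and immune medians were -1.23 and -0.76, and with library size alone the beta median was -0.09. Without tumour 1 and 2, with 0 members called (0.716% of genes), the class medians in the same order were -0.19, -0.18, 0.01, -0.13, -0.12 and -0.08. When trained 2 was left out as well, 5 regulatory particle genes were called lower (Psmc4 at -0.39, Psmd11 at -0.36, Psmd2 at -0.31, Psmd4 at -0.40 and Psmd7 at -0.33) and Psmc6 higher at 0.54, in a fit that called 5.04% of genes lower and 6.79% higher. Psmd8 and Psme3 were not among them. Psma8, the alpha subunit of the testis just outside the level limit, was called higher with all libraries (1.58 ± 0.41, adjusted p = 0.0408, edgeR) and was not called without tumour 1 and 2 (0.95 ± 0.52). It is named after its values were seen.

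With training alone no member was called: in trained against control hearts 0 of 47 were called, as were 0% of all genes. None had an unadjusted p below 0.05 in edgeR, beside 1.2% of genes higher and 0.978% lower at that p. DESeq2 also called 0 members, and its share of all genes is not given here. The median of the members was 0.03 and of all genes 0.01. Groups did not overlap for 3 members higher (4.04% of genes) and 3 lower (5.44%). The 3 lower were Psmd11 (-0.14 ± 0.11), Psmd7 and Psmd8, and the 3 higher were Psmg1 (0.25 ± 0.16), Psmd10 (0.32 ± 0.23) and Psmc3ip. As shares of the 47 these counts were close to those of all genes. Without tumour 1 and 2 and trained 2, Psme4 and Psmc6 were called higher, at 0.41 and 0.50, in a fit that called 8.52% of genes higher. Trained 2 was the lowest of all 12 libraries for both, at 132 scaled CPM for Psme4 and 34.2 for Psmc6. Leaving it out was therefore bound to raise their trained means, and these calls are no separate evidence of a training difference.

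In tumour trained against control hearts 0 members were called (0% of genes) and 1 had an unadjusted p below 0.05 in edgeR (Psmd10, 0.51 ± 0.23, next to 4.55% of genes higher and 1.91% lower). DESeq2 called 0 members, with its share of all genes not given here. Psmc6 and Psme4 had log2 fold changes of 0.63 ± 0.30 and 0.50 ± 0.27, with no overlap. Both are among the 10 members of lowest transcript GC, whose values as a set are given below. In all, 9 members were higher without overlap and 8 lower, next to 21.9% and 17.4% of genes. With only these 2 groups in the fit, 4 members were called: Psmc6 (0.62) and Psme4 (0.49) higher, and Psmd8 (-0.24) and Psme3 (-0.25) lower, where 12.8% of genes were called higher and 7.58% lower. In tumour trained against trained hearts 0 members were called (0% of genes) and 0 had an unadjusted p below 0.05 in edgeR (0.595% of genes were higher and 0.579% lower at it). There were 4 members higher and 8 lower without overlap (7.9% and 8.05% of genes). DESeq2 called 0 members there too, again without its share of all genes.

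The interaction asks whether the tumour difference was the same with and without training. No member was called (0.0235% of genes were), 2 had an unadjusted p below 0.05, both negative (11.2% of genes, with 3.22% positive), and DESeq2 called 0 (2.11% of genes). The 2 were Psmc4 (-0.59 ± 0.20, adjusted p = 0.29) and Psmc3ip (-1.70 ± 0.67, adjusted p = 0.307). Without tumour 1 and 2 again 0 were called (0.246% of genes), and Psmc4 and Psmc3ip had -0.47 ± 0.20 and -0.51 ± 0.56. The median of the 5 immune genes was 0.32 with all libraries and -0.20 without tumour 1 and 2. Without tumour 3, 5 were called: Psmc4, Psmd8, Psme3 and Psmc3ip with negative values and Psme1 with a positive one, where 30.1% of genes were.

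Members also differed between libraries, within 1 group and between groups, by the GC content of their transcripts. Across 46 proteasome genes, the Spearman correlation between transcript GC and the log2 ratio to the control mean was 0.82 in trained 2 and 0.76 in control 3, and between -0.77 and -0.15 in the other 10 libraries. Over all genes with a GC value it was 0.54, 0.18 and -0.61 to 0.14. In trained 2 the 10 members of lowest GC, Psmc6 and Psme4 among them, had a median log2 ratio of -0.44 and the 10 of highest GC, which hold 4 of the 5 immune genes, a median of 0.26. The 10 of lowest GC had medians of 0.16, 0.23 and 0.23 in tumour trained 1, 2 and 3 and 0.17 and 0.27 in trained 1 and 3. In controls 1 to 3 these were 0.02, 0.14 and -0.12, and in tumour 1 to 3 they were 0.22, 0.19 and 0.11. The fits that called Psmc6 and Psme4 held no GC adjustment, and how much GC contributed to those calls was not tested. Psmb10 over Psmb7, the pair of unlike GC, was highest in trained 2 and control 3, where the correlation was positive. The correlation was -0.56 in trained 1 and -0.60, -0.68 and -0.77 in tumour trained 1 to 3, where the ratio lay below the lowest control. It was -0.34, -0.33 and -0.36 in tumour 1 to 3, where the ratio did too, and -0.69 in control 2. The ratio held no GC adjustment. The points of a library share its depth and scaling, so these values are descriptions. With an adjustment for transcript GC, edgeR called 4 members lower in tumour trained against tumour, where 9% of genes were: Psmc4 (-0.49, adjusted p = 0.0498), Psme3 (-0.80, adjusted p = 0.0483), Psmd11 (-0.38, adjusted p = 0.0453) and Psmd14 (-0.44, adjusted p = 0.0478). Psmd8 was then not called (-0.86, adjusted p = 0.054), and without tumour 1 and 2 the adjusted fit called 0 members (3% of genes).

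**Figure D5:**
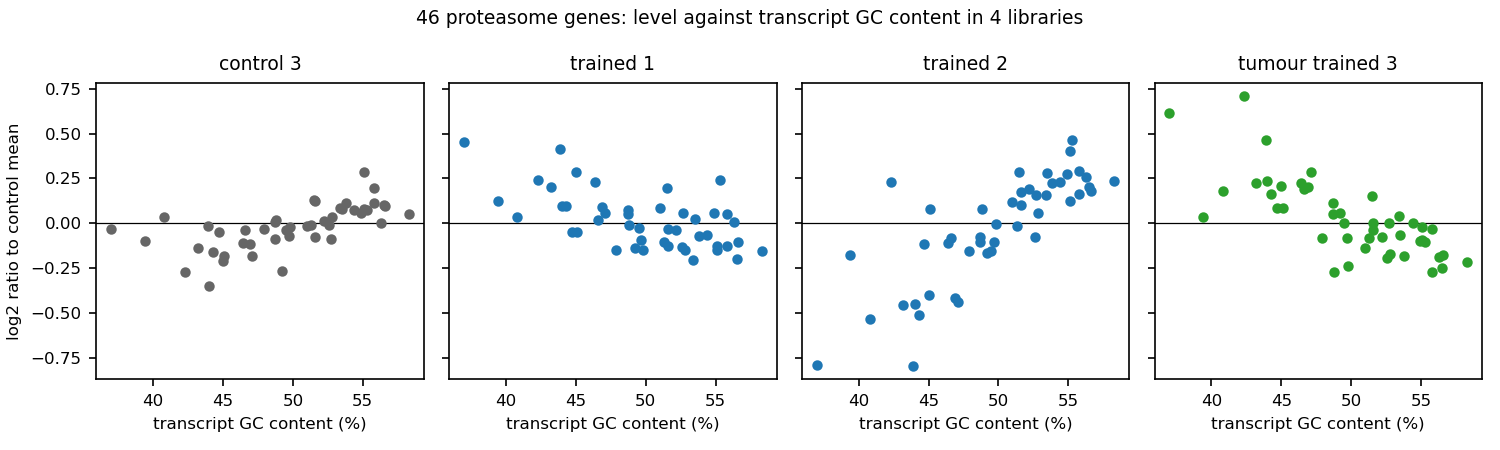
Log2 ratio of scaled CPM to the control mean (vertical axis) against transcript GC content in percent (horizontal axis) for 46 proteasome genes in 4 libraries, 1 point a gene. The points slope up in control 3 and trained 2 (Spearman 0.76 and 0.82) and down in trained 1 and tumour trained 3 (-0.56 and -0.77).

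Of 38 other genes of the pathway, listed apart from the members, 37 were tested. Against control, 0 were called in tumour hearts (6.79% of genes), and in tumour trained against tumour hearts 3 were lower and 0 higher (7.25% and 1.79% of genes), a share close to that of all genes: Ddi2, Fbxo7 and Nploc4. Ddi2 is the protease that activates the transcription factor Nfe2l1, which drives proteasome genes when the proteasome is impaired. Ddi2 was at 20.3, 20.9 and 16.3 scaled CPM in control hearts, 14.7, 13.1 and 11.1 in trained, 31.5, 28.7 and 27.8 in tumour and 11.8, 17.6 and 14 in tumour trained hearts. All tumour libraries, tumour 3 included, were above all 9 others (-1.02 ± 0.19, adjusted p = 0.0357). Fbxo7, which binds the inhibitor Psmf1, was at 19.1, 19.1 and 20.8 scaled CPM in controls 1 to 3, 17.7, 19.9 and 18.1 in trained, 32.3, 34.2 and 21.9 in tumour and 17, 15.9 and 15.3 in tumour trained hearts. Its tumour 3 was much nearer to the other groups than tumour 1 and 2 (-0.88 ± 0.18, adjusted p = 0.0357). Nploc4, a cofactor of the segregase Vcp, was at 99.6, 99.4 and 101 scaled CPM in control hearts, 83.9, 111 and 84.1 in trained, 137, 130 and 131 in tumour and 98.6, 88.5 and 90.5 in tumour trained hearts. Its 3 tumour libraries were close together above the rest (-0.52 ± 0.14, adjusted p = 0.043). None of the 37 was called without tumour 1 and 2, and the 3 had -0.96 ± 0.22, -0.46 ± 0.15 and -0.52 ± 0.16.

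Nfe2l1 itself was at 661, 657 and 647 scaled CPM in controls 1 to 3, 618, 628 and 527 in trained, 279, 578 and 699 in tumour and 587, 598 and 614 in tumour trained hearts. It was low in tumour 1 and highest of all libraries in tumour 3 (-0.34 ± 0.27, adjusted p = 0.372 in tumour against control, and 0.10 ± 0.12 without tumour 1 and 2). The core chaperone Pomp, the ubiquitin receptor Adrm1 and the small subunit Sem1 were not called in any comparison, with log2 fold changes of -0.12 ± 0.14, 0.15 ± 0.13 and 0.09 ± 0.15 in tumour against control and 0.24 ± 0.14, -0.32 ± 0.13 and 0.02 ± 0.15 in tumour trained against tumour. In the fit without tumour 1 and 2 they had -0.16 ± 0.16, 0.19 ± 0.15 and -0.01 ± 0.18, then 0.28 ± 0.16, -0.37 ± 0.15 and 0.11 ± 0.18. Next by p-value were the ubiquitin gene Rps27a in tumour against control (0.70 ± 0.24) and the ubiquitin binding adaptor Sqstm1 in tumour trained against tumour (-0.59 ± 0.19), neither called, with 0.01 ± 0.12 and -0.79 ± 0.17 without tumour 1 and 2. In trained against control hearts the 4 genes of smallest p were Ddi2 (-0.57 ± 0.19), Bag3 (-0.46 ± 0.30), Ube3a (0.56 ± 0.38) and Ubqln1 (-0.22 ± 0.16), and none was called.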

How the data were processed

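RNA sequencing of 12 heart libraries, 3 in each of 4 groups, was deposited as 1 table of 17397 genes. Its values are estimated counts per gene, deposited by the authors without normalisation; 7.09% to 8.92% of a library's values were not whole. HISAT2 2.2.1 and featureCounts are named in the submitters' processing notes, which name both GRCm39 and mm10. The build behind the counts, the annotation and the strand setting were not given in the sources used, so reads of overlapping or antisense genes may be mixed.

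Counts were rounded and tested with edgeR 4.0.16 (TMM scaling, filterByExpr by group, which removed 4619 genes, glmQLFit and glmQLFTest, 1 mean per group, 8 residual degrees of freedom before moderation) in R 4.3.3, with Benjamini-Hochberg adjustment over 12778 genes and a threshold of 0.05. Fold changes are log2 ± standard error from that fit, and log2 ratios of a library to the control mean used 0.1 CPM as pseudocount. The counting error of a library's shares was small at totals of 8843909 to 13344847, and libraries of 1 group differed beyond it. For the members' share, the 95% counting interval was 0.4256% to 0.4334% in control 1 and 0.4093% to 0.4172% in control 3. DESeq2 1.42.0, other scalings, filters and designs, and leaving libraries out were the alternatives, with 2 adjustments for transcript GC (GENCODE transcripts, 12648 genes matched) added after the data were seen. Ratios of counts within a library were compared by an exact two-sided permutation test, added after the data were seen. The scripts were tested on simulated data.

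The members, the pathway list and the marker lists were chosen with earlier results of these data known. Values in every library are given for members called in any of the 6 comparisons, the immune genes with Psmb5, Psmb6 and Psmb7, and the 2 highest and 2 lowest members of each class in tumour against control. Of the pathway list, called genes, those of smallest p, Nfe2l1, Pomp, Adrm1 and Sem1 are named.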

Additional observations from a re-analysis of the deposited data

How the results depend on the processing

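Counts of called members moved with the setting. In tumour against control, where 0 were called, DESeq2 called 5 (with 17.8% of all genes), library size alone 8 (15.4%), scaling to the cardiomyocyte markers 43 (71.9%) and the fit without tumour 1 and 2 and trained 2 called 2 (5.8%), and leaving out 1 library in turn gave 0 to 14, the 14 without tumour 3 (53%). In tumour trained against tumour, where 3 were called, DESeq2 called 8 (18.6% of all genes), library size alone 8 (13.2%), the cardiomyocyte scaling 40 (60.1%), the robust quasi-likelihood fit 1 (7.83%), and 0 were called with only the groups compared (0.0159%), without tumour 1 and 2 (0.716%), and with the GC adjustment without tumour 1 and 2 (3%). The fit without tumour 1 and 2 and trained 2 called 6 (11.8%), and leaving out 1 library gave 0 to 16, the 16 without tumour 3 (49.8%). Trained against control went from 0 to 2 without tumour 1 and 2 and trained 2 (11.5%), tumour trained against control from 0 to 5 in that fit (21.8%) and to 4 with only the groups compared (20.4%), and the interaction ranged from 0 to 5 on leaving out 1 library, the 5 without tumour 3 (30.1%). Tumour trained against trained had 0 called under each of the 25 alternatives that gave a value for it, and the shares of all genes in those fits are not given here. The cause of these moves was not tested.

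Of 1550 values for single named members under alternatives, 159 changed sign. In 15 of these the value with the other sign was called, all under the cardiomyocyte scaling. Log2 fold changes in tumour against control were then 1.07 for Psmb2, 1.01 for Psmb5, 1.18 for Psmb6, 1.29 for Psmb7, 0.86 for Psmb8, 1.19 for Psmc3 and 1.27 for Psmg2. In tumour trained against tumour they were -1.31 for Psma1, -1.12 for Psmb2, -1.03 for Psmb5, -1.23 for Psmb6, -1.19 for Psmb7, -0.93 for Psmb8, -1.13 for Psmc3 and -1.57 for Psmd10. This scaling moved nearly all genes: their median was 1.56 in tumour against control and -1.43 in tumour trained against tumour. In the other 144 neither value was called: 26 without tumour 1 and 2, 26 without these and trained 2, 22 with the GC adjustment without tumour 1 and 2, 11 under the cardiomyocyte scaling, 10 with library size alone, 36 on leaving out 1 library and 13 under the rest. Of the values that kept their sign, 1274 kept their side of the threshold, 66 passed it only under the alternative and 51 no longer passed.

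The replicate numbers did not pair the libraries: of 18 pairs with the same number, 3 had deviations correlated above 0.1 (range -0.30 to 0.26). With a replicate block, 0 members were called in tumour trained against tumour (0.141% of genes), as in every other comparison.

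A p above the threshold does not show that groups were alike, with 3 libraries a group and tumour libraries that differ among themselves. Adjusted p-values of the 3 called members lay between 0.0466 and 0.0499, just under the threshold.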
